A study of Drosophila melanogaster with 3 samples.

Results

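The mitochondrial genome of Drosophila melanogaster encodes 22 transfer RNAs, and 8 of them lie on its minus strand, here called the minor strand because it holds fewer of the tRNA genes. These 8 genes were taken by symbol and strand from the authors' deposited comparison of small RNA in heads of adult males, which has 3546 rows for noncoding genes, 312 of them tRNA genes. They carry glutamine (mt:tRNA:Gln-TTG), cysteine (mt:tRNA:Cys-GCA), tyrosine (mt:tRNA:Tyr-GTA), phenylalanine (mt:tRNA:Phe-GAA), histidine (mt:tRNA:His-GTG), proline (mt:tRNA:Pro-TGG), leucine (mt:tRNA:Leu-TAG) and valine (mt:tRNA:Val-TAC). The annotation gave a strand of minus for all 8, and no other tRNA gene of the mitochondrial genome lies on that strand. The other 14 are on the major strand.

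Each strand of an animal mitochondrial genome is copied into long transcripts by an RNA polymerase of the organelle's own, which is distinct from the RNA polymerase III that makes nuclear tRNA. The tRNAs sit between the protein and rRNA sequences of these transcripts and are cut out by RNase P at the front and RNase Z at the back, which also releases the neighbouring RNAs. All are used inside the organelle to translate the mitochondrially encoded subunits of the respiratory chain and of ATP synthase, for which neurons have a high demand.

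The Sxl-RAC group was made with nSyb-GAL4, a driver active in neurons, which turned on UAS-SxlRAC, a transgene for Sxl-RAC, the labels' name for a form of Sex-lethal, an RNA-binding protein of sex determination, in males that also carried tub-GAL80ts, a temperature-sensitive repressor of GAL4. The control crossed nSyb-GAL4 to UAS-mCherry, a red fluorescent protein, at the attP2 site, and the labels write the repressor once, ahead of the first cross. Flies were raised at 18 °C and kept at 29 °C for 4 days after eclosion, the warmer temperature being the one at which the repressor stops acting. Whole heads were sampled, so cells other than neurons contributed RNA, and the number of flies per sample and their separate origin are not given. The p-values therefore measure the spread between libraries, which may be technical. The series' title concerns neuronal tRNA synthesis in males and its regulation through RNA polymerase III.

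The table gives, for each gene, 1 mean normalised count over all libraries (reads divided by a library's size factor), a log2 fold change of Sxl-RAC over control, its standard error (SE) and DESeq2's Wald p. The direction is that of the table's name, and Sxl is not a row by which to check it. It has no column per library, and the labels list 3 samples of Sxl-RAC. The reads of each library could be recovered for genes with few reads, because a mean count is a sum of whole reads that are each worth a fixed amount in their library. All 33 distinct mean counts under 0.95 among tRNA genes could be written as such sums with 6 libraries, against 24 of them with 1 library fewer. The authors' fold changes divided the libraries into 3 Sxl-RAC and 3 control libraries, with a correlation across genes of 0.908 for that division and 0.716 for the next best. For 6 of the 8 genes a single set of whole reads gave the deposited mean count, among sets with arm sums near the deposited fold change. For the others the set was chosen by a refit, in which the next best set missed the deposited fold change or standard error by 0.00851 or more. The sets used met the fold change to within 5.20e-06 for all 8 genes. The dispersion of the refit was set to give the deposited standard error, so only the fold change serves as a check. The recovered libraries are numbered within each arm from the deepest to the shallowest. Which listed sample each one is remains unknown.

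The 8 genes were sparsely read, which is not particular to them. Their median mean count was 11.6 in the authors' deposited table, against 11.1 over the 299 tRNA genes with reads. Over the 6 libraries together they held between 19 reads, for mt:tRNA:Gln-TTG, and 144 reads, for mt:tRNA:Tyr-GTA, and all 8 combined held 633. A single library had from 59 to 201 of these reads, and 2 of the 48 library values were 0. The size factors of the tRNA genes ran from 0.625 to 2.19, with a control library as the deepest and an Sxl-RAC library as the shallowest. In the authors' deposited table the 8 mean counts summed to 98.5, which was 2.69% of the sum over the 22 mitochondrial tRNA genes and 0.0170% of the sum over all tRNA genes. Most of the mitochondrial sum, 80.4%, came from 1 major-strand gene, mt:tRNA:Ser-GCT.

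Levels per length, here reads in small RNA libraries, fell into 3 tiers. How evenly different tRNAs were captured was not tested, so these levels are not amounts of tRNA. In the authors' deposited table the highest levels were 32.5 mean normalised counts per 100 bases for mt:tRNA:Pro-TGG, 31.6 for mt:tRNA:Tyr-GTA and 31.4 for mt:tRNA:Phe-GAA. Next came mt:tRNA:Cys-GCA at 19.2 and mt:tRNA:Val-TAC at 15.7 counts per 100 bases. The lowest levels were 8.87 for mt:tRNA:Leu-TAG, 5.71 for mt:tRNA:His-GTG and 4.30 for mt:tRNA:Gln-TTG. Among the 22 mitochondrial tRNA genes these levels held ranks 8 to 18 per base, so major-strand genes stood both above and below all 8. The order of the lowest 3 rests on between 19 and 39 reads per gene and is not resolved at this depth.

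None of the 8 genes passed the authors' test. Of the 8, 5 had enough reads to receive an adjusted p, and 0 of these 5 were under 0.05, while 32 of 149 tRNA genes (21.5%) and 58 of 1128 genes of the whole table (5.14%) were. With a threshold of 0.1 it was 1 of 5, mt:tRNA:Phe-GAA, against 42 of 149 tRNA genes (28.2%). At an unadjusted Wald p under 0.05 there was 1 of 8, mt:tRNA:Phe-GAA, against 44 of 299 tRNA genes (14.7%). Of the 32 tRNA genes called, 29 were nuclear. Nuclear tRNA genes have near-identical copies, so these calls are not separate results. Some were also read far more deeply, such as tRNA:Lys-CTT-1-11 at a mean count of 14526, against at most 21.5 for the 8 genes. The share of 21.5% thus does not describe single genes at the depth of the 8. The 5.14% pools gene classes, of which at least tRNA and rRNA genes had their p-values adjusted apart. The deposited log2 fold changes of the 8 genes ran from -0.75 to 0.96, with 5 genes above 0, 3 below and a median of 0.18. Over all 299 tRNA genes with reads the median was 0.02, with 153 above 0 and 146 below. The tRNA genes have size factors of their own, which hold their middle near 0. That median therefore does not show whether tRNA changed as a class. Size factors of the microRNA genes would add -0.43 to each of these values. In RNA from whole heads, fewer cells of a type and less RNA per cell cannot be told apart.

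A first set of 4 genes has G as the first anticodon base, which pairs with codons ending in a pyrimidine. These are the tRNAs for tyrosine, phenylalanine, histidine and cysteine, and they include the lowest and the highest fold change of the 8.

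The tyrosine tRNA, mt:tRNA:Tyr-GTA (BDGP6.54 mitochondrial genome, 1403 to 1468, minus strand), had the lowest fold change. Its normalised counts were 23.7, 24.1 and 31.7 in control libraries 1 to 3, and 16.7, 20.8 and 8.0 in Sxl-RAC libraries 1 to 3. Every Sxl-RAC library lay below every control library, with means of 26.5 ± 4.51 in control and 15.2 ± 6.5 in Sxl-RAC heads (SD, n = 3 each). This was a log2 fold change of -0.75 (SE 0.43) in the authors' deposited table, with a DESeq2 adjusted p of 0.219 and a 95% interval from -1.59 to 0.09. At that standard error a change of 1.10 on the log2 scale would have been needed to be called among tRNA genes. The size factors of the tRNA genes differ from those of the microRNA genes, and on the scale of the microRNAs this gene stood at -1.18 with a recomputed adjusted p of 0.0108, where the uncertainty of the scale is not part of the test. On that scale 90 of 149 tRNA genes (60.4%) had a recomputed adjusted p under 0.05, all 90 lower, so this call is not particular to the gene.

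The phenylalanine tRNA, mt:tRNA:Phe-GAA (6344 to 6408, minus strand), had the highest fold change. Normalised counts of 12.8, 7.76 and 22.0 were found in control libraries 1 to 3, against 30.3, 20.8 and 28.8 in Sxl-RAC libraries 1 to 3. Control libraries 1 and 2 lay below every Sxl-RAC library, and the arms overlapped by control library 3. Means were 14.2 ± 7.21 in control and 26.7 ± 5.13 in Sxl-RAC heads (SD, n = 3 each). The authors' deposited table gives a log2 fold change of 0.96 (SE 0.44) and a DESeq2 adjusted p of 0.0993, that is 1.95-fold with a 95% interval from 1.07-fold to 3.53-fold. On the microRNA scale the value was 0.53, with a recomputed adjusted p of 0.269.

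These 2 genes can also be set against each other without any scale, since their reads come from the same libraries. For each read of mt:tRNA:Tyr-GTA there were 0.538, 0.321 and 0.692 reads of mt:tRNA:Phe-GAA under control and 1.8, 1.0 and 3.6 under Sxl-RAC. The tyrosine tRNA was the more frequent of the pair in all 3 control libraries and in 0 of 3 Sxl-RAC libraries, with equal numbers of reads in Sxl-RAC library 2. The pair was picked as the extremes of the 8, so this ratio is given as a description with no test.

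**Figure D1:**
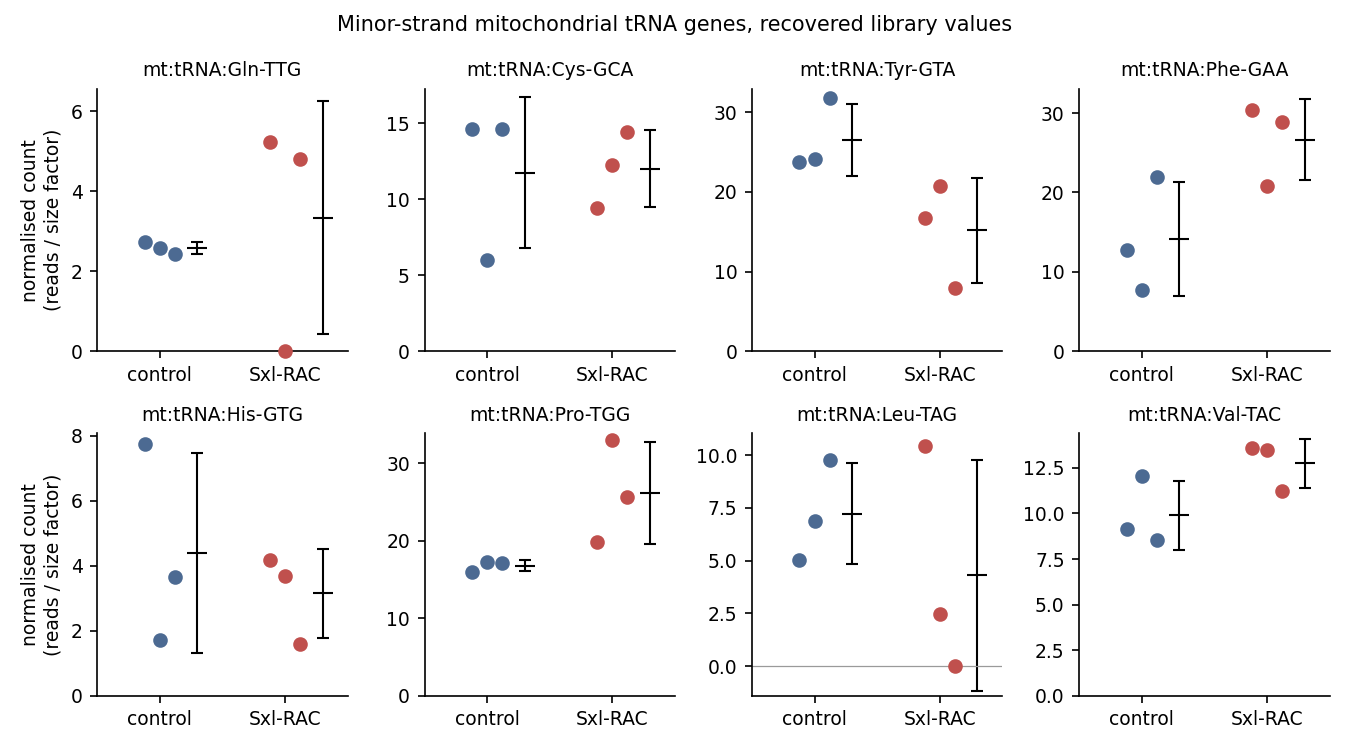
Normalised counts (reads divided by the size factor of the library) of the 8 minor-strand mitochondrial tRNA genes, with 1 point per recovered library in order of depth within each arm; bars give the mean and SD of 3 libraries, and each panel has its own linear axis. The arms separate downward for mt:tRNA:Tyr-GTA (16.7, 20.8 and 8.0 in Sxl-RAC heads against 23.7 to 31.7 in control) and upward for mt:tRNA:Pro-TGG, and overlap for the other genes.

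The cysteine tRNA, mt:tRNA:Cys-GCA (1322 to 1383, minus strand), lies next to the tyrosine gene on the same strand with 19 bases between them. Libraries 1 to 3 held normalised counts of 14.6, 6.03 and 14.6 in control and 9.42, 12.2 and 14.4 in Sxl-RAC libraries. The arms overlapped, with means of 11.8 ± 4.96 and 12 ± 2.5 (SD, n = 3 each). A log2 fold change of 0.01 (SE 0.55) stands in the authors' deposited table, with a DESeq2 adjusted p of 0.993 and a 95% interval from -1.08 to 1.09. Refits without 1 library ran from -0.30 to 0.24. The gene shares 8 bases with mt:tRNA:Trp-TCA on the opposite strand. Whether counting used strand is not stated, so reads of the shared bases cannot be assigned. The partner held 10 reads in all and mt:tRNA:Cys-GCA 79, and the part of the overlap was not tested.

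The histidine tRNA, mt:tRNA:His-GTG (8141 to 8206, minus strand), had 30 reads in all. Its normalised counts were 7.75, 1.72 and 3.66 in control and 4.19, 3.67 and 1.6 in Sxl-RAC libraries, so the arms overlapped and the highest value was that of control library 1. For it the authors' deposited table has a log2 fold change of -0.50 (SE 0.98), an unadjusted DESeq2 Wald p of 0.607 and no adjusted p. Without control library 1, which held 17 of the 30 reads, a refit gave 0.32, and without control library 2 it gave -0.87.

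A second set of 4 genes has T as the first anticodon base in the gene, U in the RNA. The tRNAs for proline, leucine and valine each read a whole box of codons in mitochondria, while that for glutamine reads codons ending in a purine.

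The proline tRNA, mt:tRNA:Pro-TGG (9903 to 9968, minus strand), had the highest mean count of the 8, 21.5 in the authors' deposited table. Normalised counts were 16.0, 17.2 and 17.1 in control and 19.9, 33.0 and 25.6 in Sxl-RAC libraries. Every Sxl-RAC library lay above every control library, with means of 16.8 ± 0.696 in control and 26.2 ± 6.60 in Sxl-RAC heads (SD, n = 3 each). The change was 0.64 on the log2 scale (SE 0.40) in the authors' deposited table, with a DESeq2 adjusted p of 0.272 and a 95% interval from -0.14 to 1.43. A change of 1.04 would have been needed to be called. On the microRNA scale the value was 0.21, with a recomputed adjusted p of 0.661. The separation of the arms is that of the tRNA scale and was not tested on the other.

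For the valine tRNA, mt:tRNA:Val-TAC (14059 to 14130, minus strand), the normalised counts were 9.12, 12.1 and 8.54 in control and 13.6, 13.5 and 11.2 in Sxl-RAC libraries. The arms overlapped by control library 2, with means of 9.91 ± 1.89 and 12.8 ± 1.34 (SD, n = 3 each). The authors' deposited table puts it at a log2 fold change of 0.37 (SE 0.54, DESeq2 adjusted p 0.758). On the microRNA scale it was -0.06.

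The leucine tRNA, mt:tRNA:Leu-TAG (12670 to 12734, minus strand), is the minor-strand member of the pair of mitochondrial leucine tRNAs. Control libraries held normalised counts of 5.02, 6.90 and 9.76, and Sxl-RAC libraries 10.5, 2.45 and 0. Both the highest and the lowest of the 6 values were thus in the Sxl-RAC arm, and the 0 of Sxl-RAC library 3 allows a normalised count of up to 4.80 (3 reads, counting error only). Its log2 fold change of -0.60 (SE 0.85) had an unadjusted DESeq2 Wald p of 0.477 in the authors' deposited table. The value rests on single libraries, since a refit gave -2.38 without Sxl-RAC library 1 and -0.10 without Sxl-RAC library 3. The other leucine gene, mt:tRNA:Leu-TAA on the major strand, was at 0.48 (SE 0.85) in the authors' deposited table.

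The glutamine tRNA, mt:tRNA:Gln-TTG (97 to 165, minus strand), had the fewest reads. Its normalised counts were 2.74, 2.59 and 2.44 in control and 5.23, 0 and 4.80 in Sxl-RAC libraries, where the 0 allows up to 3.67. The authors' deposited table lists a log2 fold change of 0.35 (SE 1.09, unadjusted DESeq2 Wald p 0.746). A refit gave -0.23 without Sxl-RAC library 1 and 0.95 without Sxl-RAC library 2, the library at 0. The gene has no adjusted p, so no change at this depth could have been called.

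Of the 8 genes, 2 had arms that did not overlap on the tRNA scale, mt:tRNA:Pro-TGG with Sxl-RAC higher and mt:tRNA:Tyr-GTA with Sxl-RAC lower. Among the 77 tRNA genes of either genome that lie in the same range of mean counts, 2.97 to 21.5, and whose reads were recovered, 7 had arms without overlap (9.09%). The 77 include the 8 genes, and the 7 include mt:tRNA:Pro-TGG and mt:tRNA:Tyr-GTA. An excess among the 8 was not tested. In log2, the median changes of the authors' deposited table were -0.25 for the 4 genes with G first (-0.75 to 0.96) and 0.36 for the 4 with T first (-0.60 to 0.64), ranges that overlap.

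**Figure D2:**
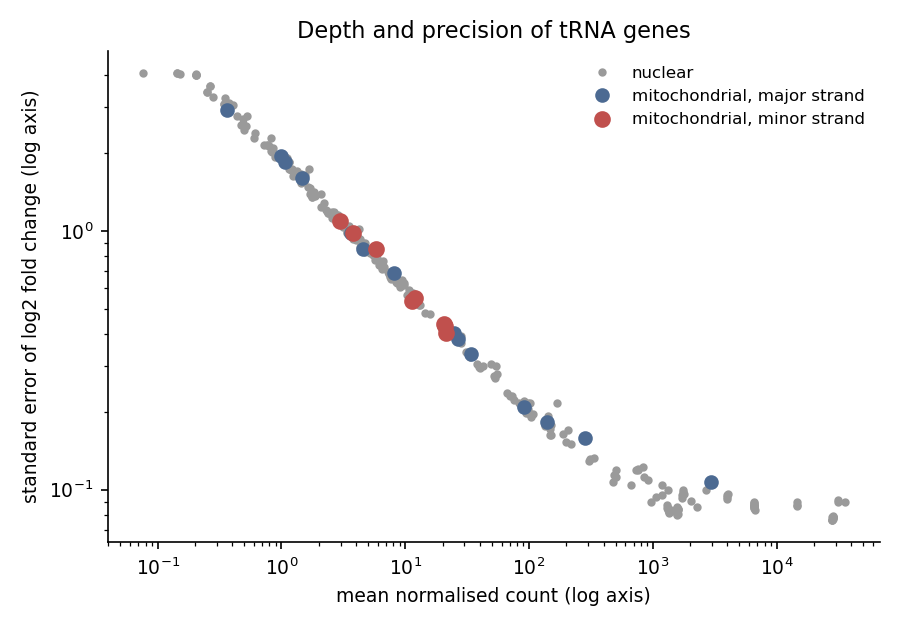
Standard error of the deposited log2 fold change against the mean normalised count for 299 tRNA genes, both on log axes; grey points are nuclear genes, blue points major-strand and red points minor-strand mitochondrial genes. The minor-strand genes have standard errors of 0.40 to 1.09 at mean counts of 2.97 to 21.5, and the 3 called mitochondrial genes (mean counts of 138.5 and above) lie further right.

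The 8 genes were measured about as precisely as tRNA genes in general, and less precisely than better read ones. Their median standard error was 0.55 in the authors' deposited table, against 0.57 over the 299 tRNA genes with reads. It was 0.12 for the 153 tRNA genes that reached a mean count of 10, which include 5 of the 8. The tRNA genes with an adjusted p start at a mean count of 11.3, close to that of mt:tRNA:Val-TAC, and mt:tRNA:Leu-TAG, mt:tRNA:His-GTG and mt:tRNA:Gln-TTG fell below that limit.

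Of the 14 major-strand tRNA genes, 13 had a log2 fold change above 0 in the authors' deposited table, with a median of 0.62, and 3 of the 7 with an adjusted p were called, all higher. These 3 were mt:tRNA:Arg-TCG at 0.70 (SE 0.18), mt:tRNA:Lys-CTT at 0.66 (SE 0.16) and mt:tRNA:Ser-GCT at 0.46 (SE 0.11), with DESeq2 adjusted p of 0.00427, 0.00175 and 0.00139. On the microRNA scale 0 of these 3 were called, at 0.27, 0.23 and 0.03 with recomputed adjusted p of 0.163, 0.186 and 0.828. The 95% intervals of 7 of the 8 minor-strand genes include the value of each of these 3, while that of mt:tRNA:Tyr-GTA ends at 0.09. The median of the minor strand was 0.44 lower than that of the major strand, and 0.22 lower over genes that reached a mean count of 10, 5 on the minor and 7 on the major strand. The extremes of the major strand, mt:tRNA:Trp-TCA at 1.64 and mt:tRNA:Glu-TTC at -1.65, rest on 10 and 3 reads.

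**Figure D3:**
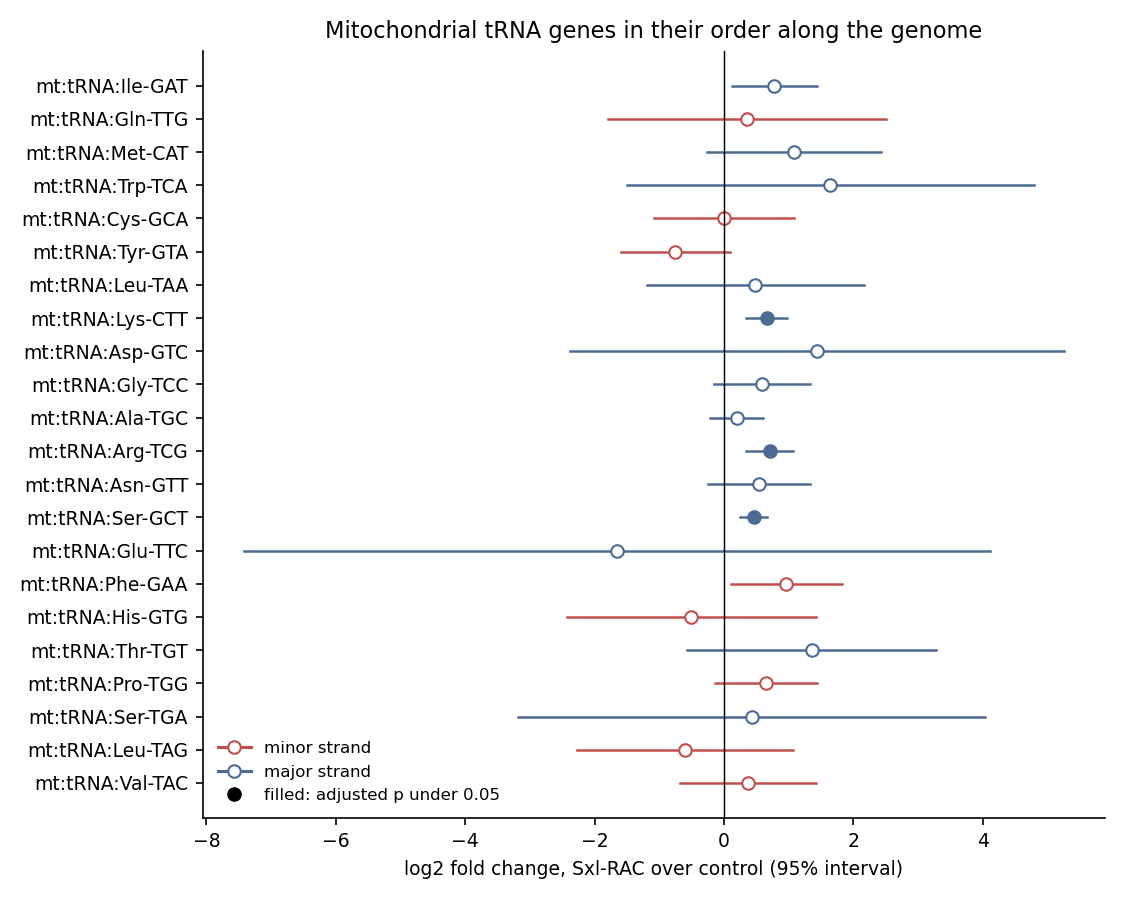
Deposited log2 fold change (Sxl-RAC over control) of the 22 mitochondrial tRNA genes from top to bottom in their order along the genome, with 95% intervals; red marks the minor strand, blue the major strand, and filled points an adjusted p under 0.05. The 3 filled points (0.46 to 0.70) are on the major strand, and the 8 minor-strand values lie on both sides of 0, from -0.75 to 0.96.

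Summed over genes, the strands could be compared library by library. The reads of 10 of the 14 major-strand genes were recovered, namely those with a mean count under 40, which excludes the 3 called genes and mt:tRNA:Ala-TGC, whose deposited log2 fold change was 0.20. Summed normalised counts of the 8 minor-strand genes were 91.7, 78.4 and 109.8 in control and 109.9, 106.4 and 94.5 in Sxl-RAC libraries. The arms overlapped, with means of 93.3 ± 15.8 and 103.6 ± 8.09 (SD, n = 3 each) and a ratio of 1.11. Without mt:tRNA:Tyr-GTA and mt:tRNA:Phe-GAA, the extremes in fold change, the sums were 55.2, 46.5 and 56.1 in control and 62.8, 64.8 and 57.6 in Sxl-RAC libraries, which did not overlap, and the ratio was 1.17. The nearest sums of the arms were 56.1 and 57.6. Both genes were left out for their values in these same data, so this separation is a description with no test. Sums of the 10 major-strand genes were 79.8, 61.2 and 104.9 in control and 160.1, 117.5 and 112.1 in Sxl-RAC libraries, a ratio of 1.58 with no overlap. Both separations of sums are those of the tRNA scale. They were not tested on the microRNA scale, which adds -0.43 to each log2 fold change.

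The ratio of minor-strand to major-strand reads needs no size factor. It was 1.15, 1.28 and 1.05 for control libraries 1 to 3, and 0.686, 0.906 and 0.843 for Sxl-RAC libraries 1 to 3. Minor-strand reads outnumbered those of the 10 major-strand genes in all 3 control libraries and in 0 of 3 Sxl-RAC libraries. The separation rested on mt:tRNA:Tyr-GTA: without it the ratio was 0.851, 0.887 and 0.744 in control and 0.582, 0.729 and 0.771 in Sxl-RAC libraries, which overlap. Without mt:tRNA:Phe-GAA as well, it was 0.691, 0.761 and 0.535 against 0.392, 0.552 and 0.514, again with overlap. No test is given for this ratio, which pools genes chosen by depth, and 3 libraries against 3 could not reach an exact two-sided permutation p below 0.1.

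**Figure D4:**
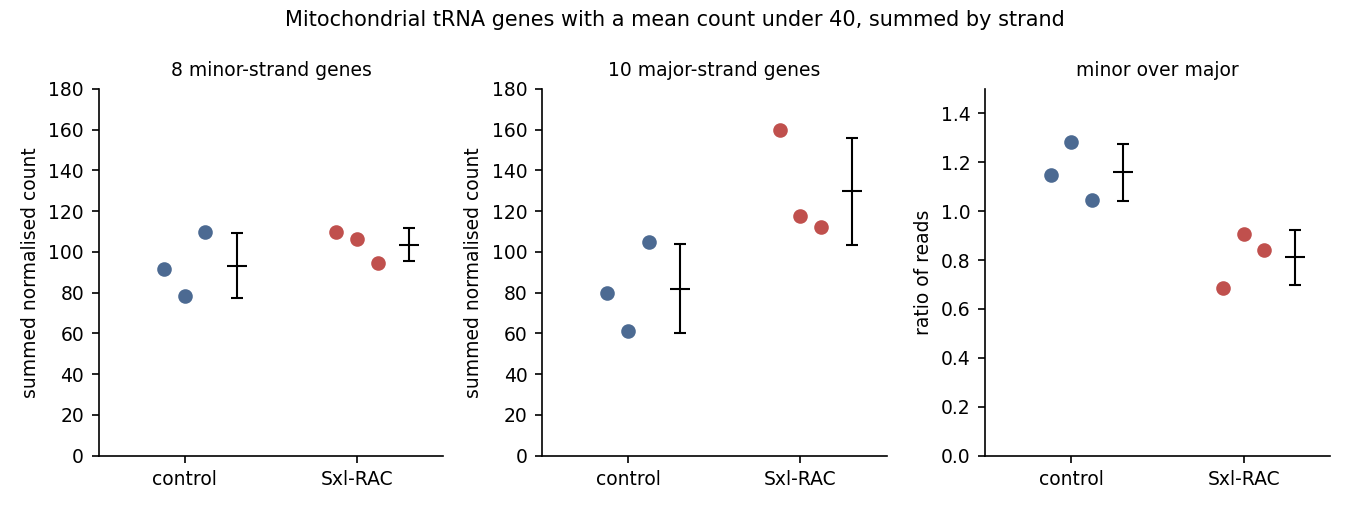
Summed normalised counts of the 8 minor-strand genes (left) and of the 10 major-strand genes with a mean count under 40 (middle), and the ratio of their reads (right), with 1 point per recovered library and bars for mean and SD of 3 libraries. The minor-strand sums overlap between arms (78.4 to 109.8 and 94.5 to 109.9), and the ratio lies at 1.05 to 1.28 in control and 0.686 to 0.906 in Sxl-RAC libraries, a separation that is lost without mt:tRNA:Tyr-GTA.

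On the genome, mt:tRNA:Val-TAC and mt:tRNA:Leu-TAG sit directly at the ends of mt:lrRNA, the large ribosomal RNA of the organelle, with 0 bases between them, and mt:tRNA:Val-TAC also borders mt:srRNA, the small one. The authors' deposited table has mt:lrRNA at -0.44 (SE 0.17, DESeq2 adjusted p 0.269) and mt:srRNA at -0.56 (SE 0.38, adjusted p 0.872), where p-values were adjusted over the rRNA rows, 103 of 103 meeting that adjustment within 1%. Whether those rows share the scale of the tRNA genes was not tested. The proline gene borders mt:tRNA:Thr-TGT of the opposite strand with 0 bases between them, and that gene, with 20 reads, stood at 1.35 (SE 0.98) in the authors' deposited table. The glutamine gene lies between mt:tRNA:Ile-GAT at 0.77 (SE 0.34, DESeq2 adjusted p 0.0826) and mt:tRNA:Met-CAT at 1.08 (SE 0.69), both of the major strand, in the authors' deposited table. Next to the phenylalanine gene on one side is mt:tRNA:Glu-TTC of the major strand with 3 reads in all. The genes for tyrosine and cysteine, neighbours on the same strand, were at -0.75 and 0.01, and their read ratios overlapped between arms, with 0.615, 0.25 and 0.462 cysteine reads per tyrosine read in control and 0.563, 0.588 and 1.8 in Sxl-RAC libraries.

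Each of the 8 has nuclear counterparts with the same anticodon, which are made by RNA polymerase III and serve the cytosol. In the authors' deposited table the summed mean count of the nuclear genes exceeded that of the mitochondrial gene for 7 of the 8 anticodons, by 2.93 times for Leu-TAG and up to 402 times for His-GTG. The exception was Phe-GAA, where 8 nuclear genes, 6 of them with reads, together had a mean count of 4.02 against 20.4 for mt:tRNA:Phe-GAA. Nuclear tRNA genes have near-identical copies, and how reads that match several copies were counted is not stated, so that counts of single nuclear genes are uncertain.

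Nuclear genes of these anticodons were called in 2 families. The gene tRNA:Tyr-GTA-1-9 was lower, at -0.43 (SE 0.09, DESeq2 adjusted p 0.000104 in the authors' deposited table). It held 2255 of the 2299 mean counts of its family and was the only member with an adjusted p. The 10 nuclear Tyr-GTA genes ran from -0.87 to 0.68, with a median of 0.10. The annotated span of tRNA:Tyr-GTA-1-9, 7711476 to 7711661 on chromosome 2L, is longer than that of the most abundant gene of each other anticodon. Which part of this span its reads came from was not tested. The mitochondrial tyrosine tRNA was at -0.75 without passing the test, and a parallel between the 2 genes was not tested. Among 7 nuclear Cys-GCA genes 1 was called, tRNA:Cys-GCA-3-1 at 0.59, a gene named after its value was seen, while the most abundant, tRNA:Cys-GCA-1-4, was at -0.04 (SE 0.11). All 5 nuclear Pro-TGG genes lay below 0, from -0.19 to -0.08, with 0 called, and mt:tRNA:Pro-TGG at 0.64 lay above all of them, with a 95% interval that starts at -0.14 and so includes 2 of the 5. Among them tRNA:Pro-TGG-1-5 was the most abundant, at -0.08. The 5 nuclear His-GTG genes ran from -0.20, for the most abundant, tRNA:His-GTG-1-4, to 0.03, with 0 called. The 2 nuclear Val-TAC genes were at 0.06 and, for the more abundant tRNA:Val-TAC-1-2, at 0.23, with 0 called. For Gln-TTG, Leu-TAG and Phe-GAA no nuclear gene had an adjusted p, and the most abundant genes had mean counts of 10.7 (tRNA:Gln-TTG-1-1), 9.49 (tRNA:Leu-TAG-1-2) and 2.09 (tRNA:Phe-GAA-1-4).

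**Figure D5:**
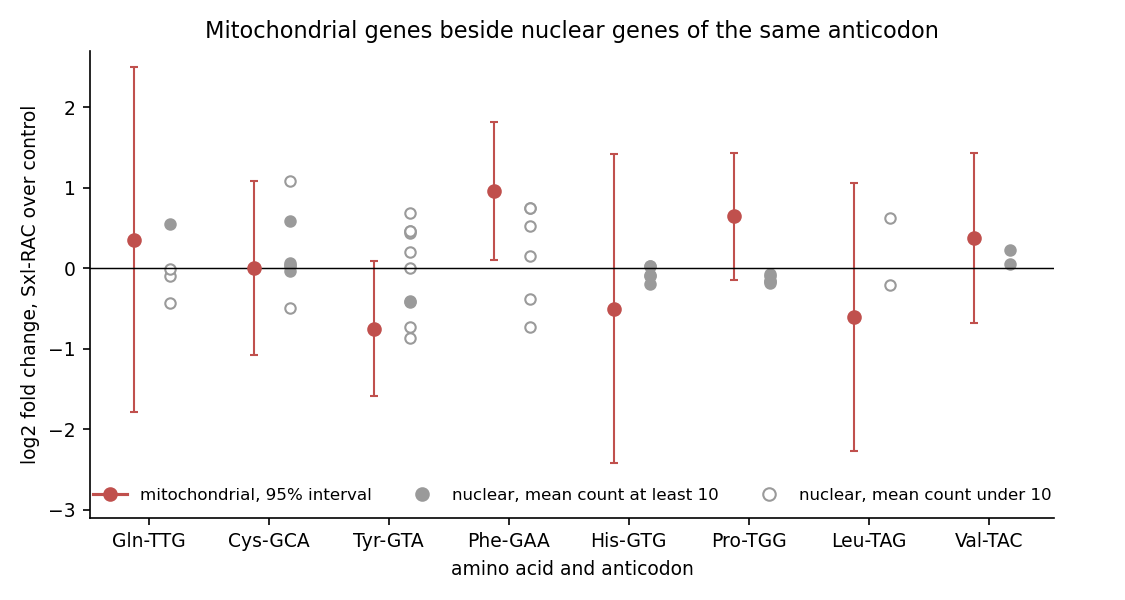
Deposited log2 fold change (Sxl-RAC over control) of the 8 minor-strand mitochondrial tRNA genes (red, 95% intervals) beside nuclear tRNA genes of the same anticodon (grey, filled from a mean count of 10, open below). The nuclear Pro-TGG genes lie between -0.19 and -0.08, below mt:tRNA:Pro-TGG at 0.64, and the filled Tyr-GTA point is tRNA:Tyr-GTA-1-9 at -0.43.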

How the data were processed

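Small RNA libraries of adult male heads were compared by the authors, and the values used are those of their deposited table. Per the submitters' processing notes the authors' tools were Trim Galore 0.6.7, Bowtie2 2.5.3, featureCounts 2.0.8 and DESeq2 2.11.40.8. Settings, genome build and use of strand are not given in the sources used here. The labels name the molecule as polyA RNA, although the kit is for small RNA. Per the file headers, the authors' base mean is a signal, read counts divided by size factors and averaged over libraries. Also deposited are the log2 fold change and its standard error, a Wald statistic (a score), and the p-value and adjusted p-value that the authors took from DESeq2's Wald test. The direction was taken from the table's name.

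Identifiers were matched to Ensembl release 115 (BDGP6.54), which covered 3545 of 3546 rows and gave symbols, strand and the 1-based coordinates printed. Adjustment over the 149 tRNA rows with an adjusted p gave the deposited value within 1% for all 149, so p-values of tRNA genes were adjusted among themselves. That tRNA and microRNA genes differ in scale was taken from their recovered size factors. The log2 size factor of Sxl-RAC minus control was -0.698 for tRNA rows and -0.269 for precursor microRNA rows. A gene is called where the authors' adjusted p is under 0.05, and intervals are 95% from the deposited standard error.

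Library reads were recovered as whole-number solutions of the mean count, checked by a negative binomial refit with the dispersion that gives the deposited standard error. Of 174 tRNA rows with reads and a mean count under 40, 170 were solved, among them all 8 genes. A count of 0 is given with a limit of 3 reads, which covers counting error only. The microRNA scale adds -0.43 to each tRNA log2 fold change, from size factors recovered from 35 low values of the precursor microRNA rows in the same way. Recovery of reads per library was chosen after seeing the data.

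The 8 genes and the lists were chosen with earlier results of these data known. All 8 genes, called, overlapping, adjacent and extreme major-strand genes, and the most abundant nuclear gene of each anticodon were to be named. No sequence is printed, since no genome was used here. Calculations used Python 3.11.15, numpy 2.4.6, pandas 2.3.3 and scipy 1.17.1.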

Additional observations from a re-analysis of the deposited data

How the results depend on the processing

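The number of called genes, 0 in the authors' deposited table, stayed at 0 with adjustment over all rows, without the filter on low counts and with the median of abundant nuclear tRNA genes moved to 0. It was 1 with a threshold of 0.1 (mt:tRNA:Phe-GAA), where 28.2% of 149 tRNA genes passed, and 1 on the microRNA scale (mt:tRNA:Tyr-GTA, -1.18, recomputed adjusted p 0.0108), where 60.4% passed, all lower. On that scale the 3 called major-strand genes became 0, an alternative added after seeing the data. The median log2 fold change of 0.18 became 0.37 over the 5 genes that reached a mean count of 10 and -0.25 on the microRNA scale, where the ratio of the summed counts went from 0.15 to -0.28 in log2. That scale turned the sign of mt:tRNA:Gln-TTG (-0.076), mt:tRNA:Cys-GCA (-0.42) and mt:tRNA:Val-TAC (-0.057), none of them called. The difference of medians between strands, -0.44, was -0.22 from a mean count of 10 up and -0.35 as a difference of weighted means. Leaving out 1 recovered library at a time, an alternative chosen after seeing the data as was the summed count, moved the median between -0.031 and 0.31 (below 0 without Sxl-RAC library 1 or 3) and the summed ratio between 0.04 and 0.28. No paired analysis was possible because the table has no column per sample. Depth limits all 8 genes: the smallest callable change of the 5 with an adjusted p ran from 1.04 to 1.42 on the log2 scale, and the other 3 could not be called.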
